A study of Macaca mulatta with 17 samples.

Results

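Enzymes that make, release, activate or inactivate estrogens inside a tissue were followed through the messenger RNA of 10 genes in the uterus of individual rhesus macaque fetuses. The 10, of 16486 genes named on the array, were CYP19A1, STS, HSD17B1, HSD17B12, SULT1E1, HSD17B2, HSD17B4, HSD17B8, SULT1A1 and SULT2B1. A gene was represented by the non-control probe whose annotation named its symbol and, where several did, by the one with the highest mean processed signal over the 17 arrays. Each of the 10 genes had 1 such probe among the 20217 probes of the array, so brightness decided nothing. No difference between groups entered the choice of probe. The genes themselves were chosen with earlier results of these data known, which their p values do not take into account. The annotation of the CYP19A1 probe named a macaque transcript clone as highly similar to the human gene, and the other 9 probes were annotated with the human transcript itself.

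Estrogen action in a target organ depends on the hormone formed and destroyed there as well as on the hormone delivered by blood. Aromatase, the product of CYP19A1, makes estrogens from androgens. Steroid sulfatase (STS) frees estrone from its circulating sulfate, reductive 17-beta-hydroxysteroid dehydrogenases turn estrone into the potent estradiol, and oxidative members of that family turn estradiol back. Estrogen sulfotransferase (SULT1E1) attaches sulfate to estrogens, and the sulfated hormone does not bind the receptor. In the adult uterus, SULT1E1 and HSD17B2 are known as enzymes of the progesterone-dominated phase of the cycle.

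Pregnant macaques carrying female fetuses ate a daily fruit treat with either vehicle (ethanol) or deuterated bisphenol A (BPA), a plastics monomer with weak estrogenic activity, at 400 µg per kg of body weight per day. The question was whether oral exposure of the dam alters the developing fetal uterus. Dams of the GD100 groups were dosed from gestational day (GD) 50 to 100 and delivered by caesarean section (5 BPA-exposed and 5 control fetuses). Dams of the GD165 groups were dosed from GD100 until vaginal delivery at term, and the arrays used here came from 3 BPA-exposed and 4 control newborns, which were euthanised within a day. Stillborn fetuses had been left out of the array study. Age, route of delivery and the dosing window therefore differ together between GD100 and GD165, and their parts cannot be told apart. RNA came from 1 side of a uterus split lengthwise from fundus to cervix, so muscle, stroma, glands, vessels and blood were measured together, and fewer cells of a type cannot be told apart from less RNA per cell.

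Each fetus gave 1 array, and levels below are log2 of the processed signal with the 75th percentile of each array set equal. "Well above background" is the scanner software's own call, taken here when at least 50% of a probe's spots carried it. All 9 uterine and Müllerian markers examined, among them HOXA10, HOXA11, EMX2 and ESR1, were well above background on all 17 arrays. That call was given to 83.8 to 89.0% of an array's spots. A library that stood apart from the others of its age was GD100 BPA replicate 1, on which 95 probes lay more than 3 log2 units above the highest of the other 9 GD100 arrays, against 0 to 5 such probes on each of the other GD100 arrays. Leaving this library out changed the call of none of the 10 genes in any of the 6 comparisons, and the values without it are given with the account of that library.

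The probes themselves bear on how SULT1A1, HSD17B1 and STS can be read. Stretches of 30 bases, 5′ to 3′ as printed in the array's files, are shown for SULT1A1 and HSD17B1, whose limits lie in their sequence, for SULT1E1 and HSD17B2, which carried the main differences, and for SULT1A2, a near relative of SULT1A1. Where in the transcript each stretch lies was not annotated. In the SULT1A1 and SULT1A2 probes, capitals mark the end of a run of 42 bases that both probes share. In the HSD17B1 probe, capitals mark a run of 8 consecutive triplets that each begin with GG.
SULT1E1: ataaatattatgtacaactataacctatgg
HSD17B2: agtgggaatgtcatagtcttgaaatgaaaa
HSD17B1: GGCGGCGGTGGTGGTGGCGGCGGCtgtggg
SULT1A1: AAGCGGCTCAAGAATcaaatatgaattgag
SULT1A2: GCGGCTCAAGAATaaagtatgatttgtgtt
With 42 of 60 bases in common, the SULT1A1 and SULT1A2 probes cannot be taken as separate measurements of 2 genes. The SULT1A3 probe shared 8 bases with the SULT1A1 probe at most. No other probe of the 20217 held a GG triplet run as long as that of the HSD17B1 probe, which was 71.7% G and C, more than 98.9% of probes. Whether that probe reads HSD17B1 alone was not tested. The STS probe was placed on the Y chromosome by the array's annotation, in a coordinate system that the annotation does not make clear, although all fetuses were female and the probe's transcript is STS, which in humans has a pseudogene on the Y chromosome.

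**Figure D1:**
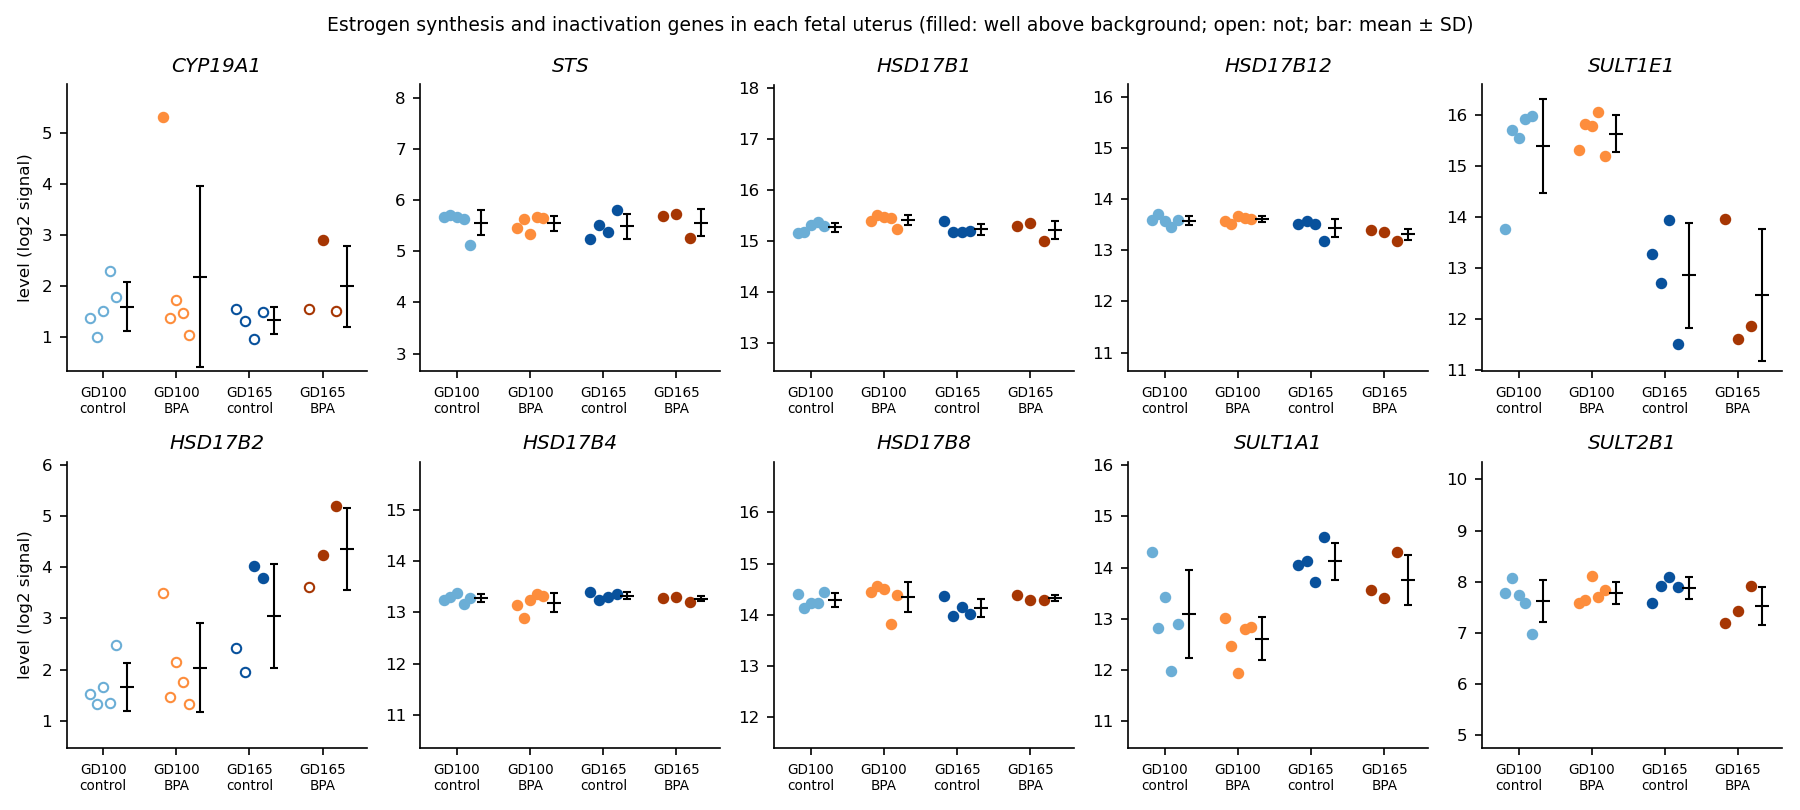
Level of each of the 10 genes in every fetal uterus, as log2 processed signal after scaling to the 75th percentile, by group (5 GD100 control, 5 GD100 BPA, 4 GD165 control and 3 GD165 BPA). Filled points were well above background, open points were not, and black bars give the mean ± SD. SULT1E1 drops from between 13.77 and 16.06 at GD100 to between 11.52 and 13.96 at GD165, SULT1A1 and HSD17B2 sit higher at GD165, and STS, HSD17B1, HSD17B4 and HSD17B8 stay within a narrow band.

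SULT1E1, the enzyme that inactivates estrogens by sulfation, had the clearest age difference of the 10 genes and was lower at GD165 than at GD100 with either treatment. In GD100 controls the levels of replicates 1 to 5 were 13.77, 15.70, 15.55, 15.92 and 15.98, and in GD100 BPA-exposed fetuses 15.31, 15.82, 15.78, 16.06 and 15.19. In GD165 controls the levels were 13.27, 12.70, 13.94 and 11.52, and in GD165 BPA-exposed newborns 13.96, 11.61 and 11.87. Of the 10 GD100 uteri, 9 lay above every GD165 uterus, and the exception was GD100 control replicate 1, whose 13.77 fell inside the GD165 range. The GD165 mean of controls was 5.77-fold lower than the GD100 mean (log2 fold change −2.53, 95% interval −3.72 to −1.34, adjusted p = 0.0048, limma). Among BPA-exposed fetuses it was 8.89-fold lower (log2 fold change −3.15, 95% interval −4.45 to −1.85, adjusted p = 0.0025, limma), and there the 2 ages did not overlap. Averaged over treatment, the log2 fold change was −2.84 (95% interval −3.72 to −1.96, adjusted p = 9.4e-05, limma).

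The limma call in controls was close to its threshold. The adjusted p was above 0.01, between 0.0114 and 0.0207, when any 1 of GD100 control replicates 2, 3, 4 or 5 or GD165 control replicates 3 or 6 was left out, and it was 0.0188 when only the control groups were fitted. The averaged difference kept its call with each of the 17 animals left out in turn, at adjusted p values of 3.1e-05 to 0.0005 for SULT1E1. Among BPA-exposed fetuses the call was lost without GD165 BPA replicate 4 or 5, at adjusted p values of 0.0159 to 0.0186. With slide as a fixed block the adjusted p was 0.0135 in controls and 0.0147 in BPA-exposed fetuses, and with the replicate number as a block the control difference was −1.97 (adjusted p = 0.0614, limma). On the slides that held both ages of control, SULT1E1 was lower at GD165 by 2.85 log2 units on slide 3 and by 2.71 on slide 5, each from 1 array of either age.

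GD165 control replicate 6, which had the lowest SULT1E1 level of all 17 uteri and without which the control difference was −2.08 (adjusted p = 0.0207, limma), stood apart in squamous epithelial markers. The log2 of their summed signal was 16.68 there and 13.45 to 14.90 in the other 3 GD165 controls, with a median deviation of 1.90 from the group mean over 7 genes. The part of squamous tissue in its SULT1E1 level was not tested.

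SULT1E1 was also among the genes that varied most between animals of the same group. Its pooled SD within groups was 0.89 log2 units, larger than that of 96.4% of probes, and within GD165 controls alone the levels spanned 11.52 to 13.94. HSD17B12, HSD17B1 and HSD17B4 had SDs of 0.11, 0.12 and 0.12. HSD17B2 had a pooled SD of 0.80 and CYP19A1 one of 1.07, but both were close to background, whereas SULT1E1 was well above background on all 17 arrays.

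GD100 control replicate 1, which set the lowest SULT1E1 level at GD100, differed in other genes as well. Its SULT1A1 level of 14.31 was above the 11.94 to 13.43 of the other 9 GD100 uteri and inside the GD165 range of 13.40 to 14.60. Its level of FOS, an immediate early transcription factor gene on the estrogen response list that was chosen here after its values were seen, was 14.71, against 9.98 to 12.35 in the other 9. MMP9, ACP5 and ATP6V0D2, also chosen after their values were seen, were at 14.03, 11.75 and 7.33 against highest values of 12.78, 10.13 and 6.35. Its columnar epithelial markers were close to the mean of its group, with a median deviation of 0.00 over 10 genes. The part of any of these in its SULT1E1 level was not tested.

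SULT1A1, a sulfotransferase of broad phenol specificity that also acts on estrogens at high concentration, ran the other way. The GD100 control levels were 14.31, 12.83, 13.43, 11.97 and 12.90, and the GD100 BPA levels 13.02, 12.47, 11.94, 12.79 and 12.84. At GD165 the controls had 14.04, 14.12, 13.72 and 14.60 and the BPA-exposed newborns 13.55, 13.40 and 14.31. Apart from GD100 control replicates 1 and 3, every GD100 uterus lay below every GD165 uterus. Averaged over treatment the GD165 level was 2.13-fold higher (log2 fold change 1.09, 95% interval 0.50 to 1.67, adjusted p = 0.0064, limma). Within controls (log2 fold change 1.03, adjusted p = 0.0615) and within BPA-exposed fetuses (1.14, adjusted p = 0.0574) the limma threshold was missed, although the latter groups did not overlap.

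The averaged SULT1A1 call was close to its threshold. Leaving out any 1 of 9 animals (GD100 control replicates 2 and 5, GD100 BPA replicates 2 and 3, GD165 control replicates 1, 3 and 6, GD165 BPA replicates 3 and 5) brought its adjusted p to between 0.0108 and 0.0237, although its size was 0.95 to 1.24 log2 units whichever of the 17 animals was left out. The averaged call was also lost with slide as a fixed block (1.25, adjusted p = 0.0302, limma). Leaving out GD100 control replicate 1 instead brought the control comparison past the limma threshold (log2 fold change 1.34, adjusted p = 0.0089). The SULT1A2 probe gave nearly the same values (averaged log2 fold change 1.07, adjusted p = 0.0059, limma), and the SULT1A3 probe did not pass (−0.14, 95% interval −0.44 to 0.15, adjusted p = 0.471, limma). The annotation names SULT1A1, but which member of the SULT1A family produced the rise cannot be told apart here.

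**Figure D2:**
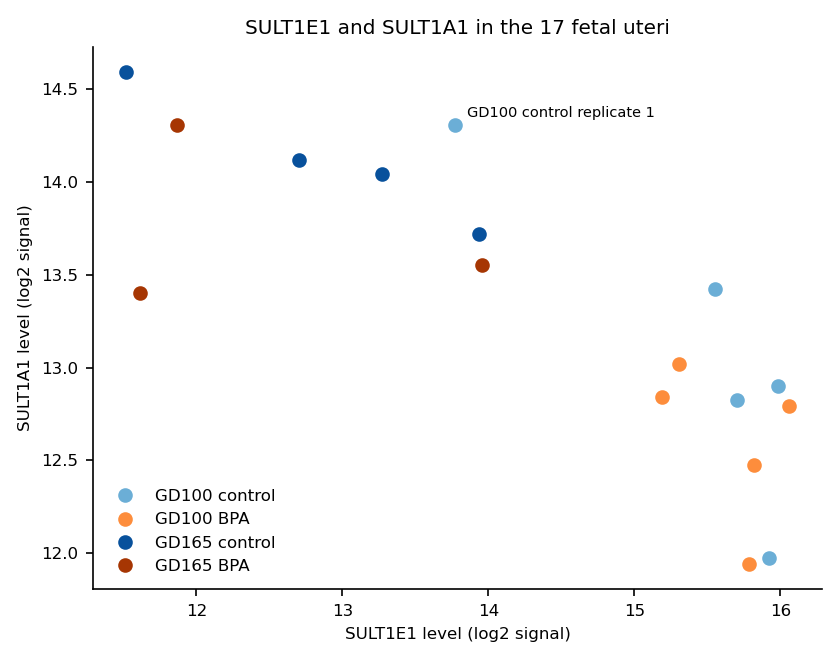
SULT1E1 level (horizontal axis) against SULT1A1 level (vertical axis), both as log2 processed signal, in each of the 17 fetal uteri, colored by group. The GD100 uteri lie at the lower right with high SULT1E1, the GD165 uteri at the upper left, and GD100 control replicate 1, at 13.77 and 14.31, lies among the latter.

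After the group means were removed, SULT1E1 and SULT1A1 still ran in opposite directions over the 17 arrays (Pearson's r of the deviations −0.64), and r was −0.45 without GD100 control replicate 1, which has both the lowest SULT1E1 and the highest SULT1A1 level at GD100. Without that animal SULT1A1 stood at place 13083 of 15099 probes in order of r with SULT1E1, so many probes ran more opposite to it. Among the 3 GD165 BPA-exposed newborns the order did not hold, since replicate 4 had the lowest level of both genes. The genes whose deviations followed SULT1E1 most closely among 15099 other named probes well above background on every array were IKBKAP (r = 0.88), CACNA1G (0.88), RANBP3 (0.84), ADAMTSL1 (0.84) and TNFRSF6B (0.84). Without GD100 control replicate 1 these values were between 0.83 and 0.93, and CACNA1G, IKBKAP and ADAMTSL1 then took places 1, 5 and 10, RANBP3 place 18 and TNFRSF6B place 24. These are descriptions over 17 arrays that share slides, scaling and, within each group, a mean, and they carry no test. CACNA1G, a calcium channel subunit, was also lower at GD165 (averaged log2 fold change −1.74, adjusted p = 2.7e-05, limma), as was ADAMTSL1 (−0.77, adjusted p = 0.0090), whereas IKBKAP was not called (0.05, adjusted p = 0.777).

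HSD17B2, which oxidises estradiol to estrone, was the other inactivating enzyme with an age difference, but at the lower edge of what the arrays measure. It was well above background on 0 of 10 GD100 arrays and on 4 of 7 GD165 arrays. The GD100 control levels were 1.51, 1.32, 1.65, 1.34 and 2.47, and the GD100 BPA levels 3.51, 1.46, 2.14, 1.76 and 1.33. The GD165 controls had 2.43, 1.96, 4.03 and 3.79, of which the last 2 were well above background, and the GD165 BPA-exposed newborns had 3.62, 4.24 and 5.20, again with the last 2 well above background. The BPA-exposed groups did not overlap and the control groups did.

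In the fit to the signals as measured, the HSD17B2 log2 fold change was 2.31 in BPA-exposed fetuses (adjusted p = 0.0082, limma). Averaged over treatment it was 1.85 (adjusted p = 0.0013, limma), and in controls 1.39, which missed the threshold (adjusted p = 0.0621, limma). GD100 signals below the lowest level called well above background on their array were also raised to that level. The GD165 mean was then 3.10-fold higher among BPA-exposed fetuses, 1.96-fold with both treatments joined and 1.41-fold among controls. These folds carry no test. Leaving out any 1 of 11 animals ended the call in BPA-exposed fetuses, at adjusted p values of 0.0102 to 0.0485. The size of the HSD17B2 difference also changed with the treatment of the background. With normexp correction and an offset of 50 the averaged log2 fold change was 0.19 (adjusted p = 0.0759, limma) in place of 1.85, and in BPA-exposed fetuses 0.20 (adjusted p = 0.197) in place of 2.31. With slide as a fixed block HSD17B2 missed the limma threshold in BPA-exposed fetuses (adjusted p = 0.0645) and averaged over treatment (adjusted p = 0.0292). Within slides, HSD17B2 at GD165 was 3.88, 0.96 and 2.18 log2 units above GD100 on slides 2, 5 and 6 and 0.62 below it on slide 3, where 1 of the 2 GD100 arrays was GD100 BPA replicate 1, from 1 to 3 arrays of either age.

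The other inactivating dehydrogenases differed little. HSD17B4, a peroxisomal enzyme that oxidises estradiol and also serves fatty acid breakdown, lay between 12.88 and 13.40 in all 17 uteri, with an averaged log2 fold change of 0.06 (95% interval −0.08 to 0.20, adjusted p = 0.532, limma). HSD17B8, which oxidises estradiol and is part of mitochondrial fatty acid synthesis, lay between 13.83 and 14.56 (−0.09, −0.30 to 0.12, adjusted p = 0.541, limma).

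Of the enzymes that form active estrogen, none was called in an age comparison in the reported fit. CYP19A1 was well above background on 2 of 17 arrays, GD100 BPA replicate 1 at 5.32 and GD165 BPA replicate 4 at 2.91. The other 15 levels lay between 0.97 and 2.29, so in most uteri no aromatase messenger was measured above background, and no fold is given for these groups. STS, which releases estrone from its sulfate, was dim but well above background on every array, at 5.12 to 5.71 at GD100 and 5.25 to 5.80 at GD165 (averaged log2 fold change −0.03, 95% interval −0.26 to 0.20, adjusted p = 0.865, limma).

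HSD17B1, the reductive enzyme best known from placenta and ovary, gave levels of 15.16 to 15.51 at GD100 and 15.01 to 15.38 at GD165 (averaged log2 fold change −0.12, 95% interval −0.25 to 0.02, adjusted p = 0.188, limma), with the limit of its probe given above. HSD17B12, a reductase of estrone that mainly elongates long-chain fatty acids, was lower at GD165 by a small amount. Its GD100 levels were 13.45 to 13.70 and its GD165 levels 13.18 to 13.57, with an averaged log2 fold change of −0.22 (95% interval −0.35 to −0.08, adjusted p = 0.0149, limma), just above the threshold of 0.01. Under alternatives other than leaving out an animal, the averaged adjusted p of HSD17B12 ran from 0.0085 to 0.309 (limma). The BPA-exposed groups did not overlap for this gene (log2 fold change −0.29, adjusted p = 0.0356, limma). SULT2B1, which sulfates cholesterol and pregnenolone rather than estrogens, lay between 6.97 and 8.12 (averaged log2 fold change −0.01, 95% interval −0.32 to 0.31, adjusted p = 0.981, limma).

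**Figure D3:**
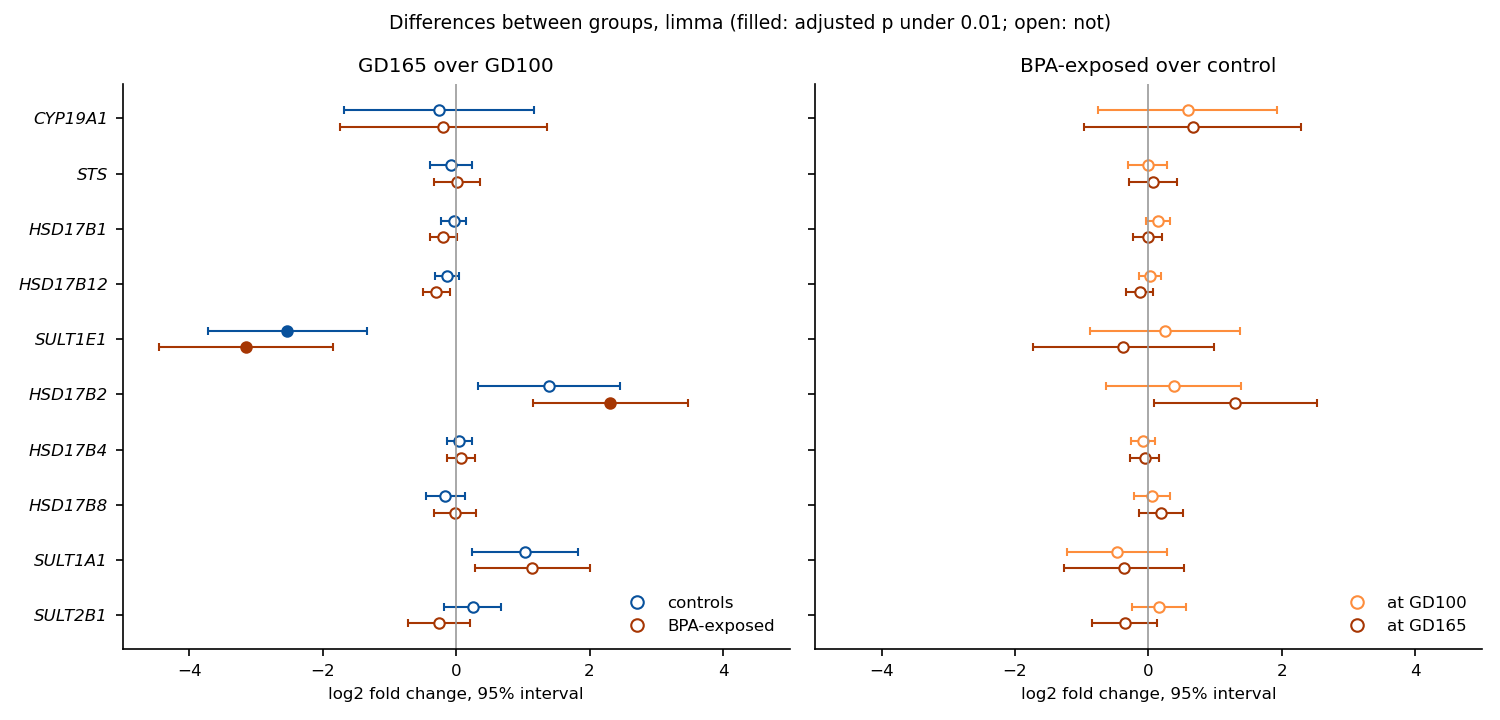
Log2 fold change of each gene with its 95% interval from limma, GD165 over GD100 on the left (controls and BPA-exposed fetuses) and BPA-exposed over control on the right (at GD100 and at GD165). Filled points passed an adjusted p of 0.01 over all 20217 probes. The fitted values of CYP19A1 and HSD17B2 rest on signals that were mostly not well above background. SULT1E1 is filled in both age comparisons, HSD17B2 in BPA-exposed fetuses alone, and no point is filled on the right.

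Counted over the 10 genes, 1 was called between ages in controls (SULT1E1, lower), where 11.5% of all probes were called, 5.2% lower and 6.32% higher. In BPA-exposed fetuses 2 were called (SULT1E1 lower, HSD17B2 higher), beside 9.68% of all probes, 4.86% lower and 4.82% higher. Averaged over treatment 3 were called (SULT1A1 in addition, higher), beside 22.4% of all probes, 11.1% lower and 11.3% higher. Groups of different age did not overlap for 0 of 10 genes in controls (19.4% of all probes) for 4 of 10 in BPA-exposed fetuses (27.2%), and for 0 of 10 with both treatments joined (9.48%). With 10 genes these shares are near those of all probes and are no result about the set. The median averaged log2 fold change was −0.06 over the 10 genes and −0.03 over all probes, and for 7 of the 10 it lay between −0.23 and 0.06.

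BPA exposure gave no call for any of the 10 genes at either age. At GD100, limma called 0 of 10 genes and 0% of all probes, 0 of 10 had an unadjusted p under 0.05 (3.79% of all probes), and the groups did not overlap for 0 of 10 (0.782% of all probes). SULT1E1 differed by 0.25 log2 units (95% interval −0.88 to 1.37) and SULT1A1 by −0.47 (−1.22 to 0.27). Without GD100 control replicate 1 the SULT1E1 difference turned to −0.16 and that of SULT1A1 was −0.17. STS (−0.01, −0.31 to 0.28), HSD17B12 (0.02, −0.15 to 0.20) and HSD17B4 (−0.08, −0.26 to 0.10) were bounded more tightly.

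At GD165, limma again called 0 of 10 genes and 0% of all probes, and 1 of 10 had an unadjusted p under 0.05 (8.61% of all probes). That gene was HSD17B2, with a log2 difference of 1.30 in BPA-exposed newborns (95% interval 0.08 to 2.52, unadjusted p = 0.0379, adjusted p = 0.560, limma), measured where 3 of the 7 arrays were not well above background. Under alternatives other than leaving out an animal, its difference ran from 0.09 to 1.84, and with normexp correction the adjusted p was 0.764 (limma). The groups did not overlap for 0 of 10 genes (7.31% of all probes). SULT1E1 differed by −0.38 (95% interval −1.74 to 0.98) and SULT1A1 by −0.36 (−1.27 to 0.54). With 1 animal left out, the SULT1E1 difference ran from −1.12 to 0.06. These intervals do not show that exposed and control uteri were alike.

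The interaction of age and BPA, which asks whether the exposure changed the age difference, was called for 0 of 10 genes (0% of all probes, and 0 of 10 beside 7.83% of all probes at an unadjusted p under 0.05). Its smallest adjusted p was 0.709, for SULT2B1 (−0.51, 95% interval −1.14 to 0.12, limma). For SULT1E1 it was −0.62 (95% interval −2.39 to 1.14) and for HSD17B2 0.92 (−0.66 to 2.51), so the age differences of these 2 genes were not shown to depend on exposure, although HSD17B2 passed in 1 treatment and not in the other. The HSD17B2 interaction ran from −0.40 to 1.57 under alternatives other than leaving out an animal.

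The single high CYP19A1 level came from the library that stood apart. GD100 BPA replicate 1 had a CYP19A1 level of 5.32, against 0.97 to 2.91 in the other 16 uteri. The same library had the highest HSD17B2 level at GD100, 3.51 against 1.32 to 2.47. DDX4, a germ cell helicase and 1 of 6 gonad and oviduct markers measured, was at 9.97 there and at 3.68 to 6.19 in the other 16. INHA was only slightly above the rest, at 12.17 against 11.52 to 12.08 in the other 16.

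The remaining gonadal and ductal markers did not stand apart in that library. FOXL2 of granulosa cells was at 7.16 (6.73 to 7.52 in the other 9 GD100 uteri), AMH at 8.14 (7.69 to 10.17) and the oviduct cilia gene FOXJ1 at 8.18 (7.77 to 8.48), and FSHR was above background nowhere. HORMAD1 and RNF17, germ-line genes chosen after their values were seen, were at 10.68 and 10.40 against highest values of 6.53 and 6.86 elsewhere. Of 5 skeletal muscle markers, MYH8 at 8.87, ACTA1 at 9.90, MYL1 at 6.89 and CKM at 5.63 lay above highest values of 5.77, 7.15, 3.95 and 2.30 in the other 9, and MYH2, at 7.37, lay inside their range of 5.90 to 8.63. The part of such tissue in its CYP19A1 and HSD17B2 levels was not tested.

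Without GD100 BPA replicate 1, CYP19A1 was well above background on 0 of the other 9 GD100 arrays. SULT1E1 remained lower at GD165 in BPA-exposed fetuses (log2 fold change −3.23, adjusted p = 0.0045, limma) and averaged over treatment (−2.88, adjusted p = 0.00019). HSD17B2 stayed past the limma threshold in both comparisons (adjusted p = 0.0024 and 0.00029), as did the averaged rise of SULT1A1 (1.14, adjusted p = 0.0069). Between BPA-exposed and control fetuses at GD100, SULT1E1 then differed by 0.33 and SULT1A1 by −0.58, and the interaction of SULT1E1 was −0.70, with 0 of the 10 genes called.

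**Figure D4:**
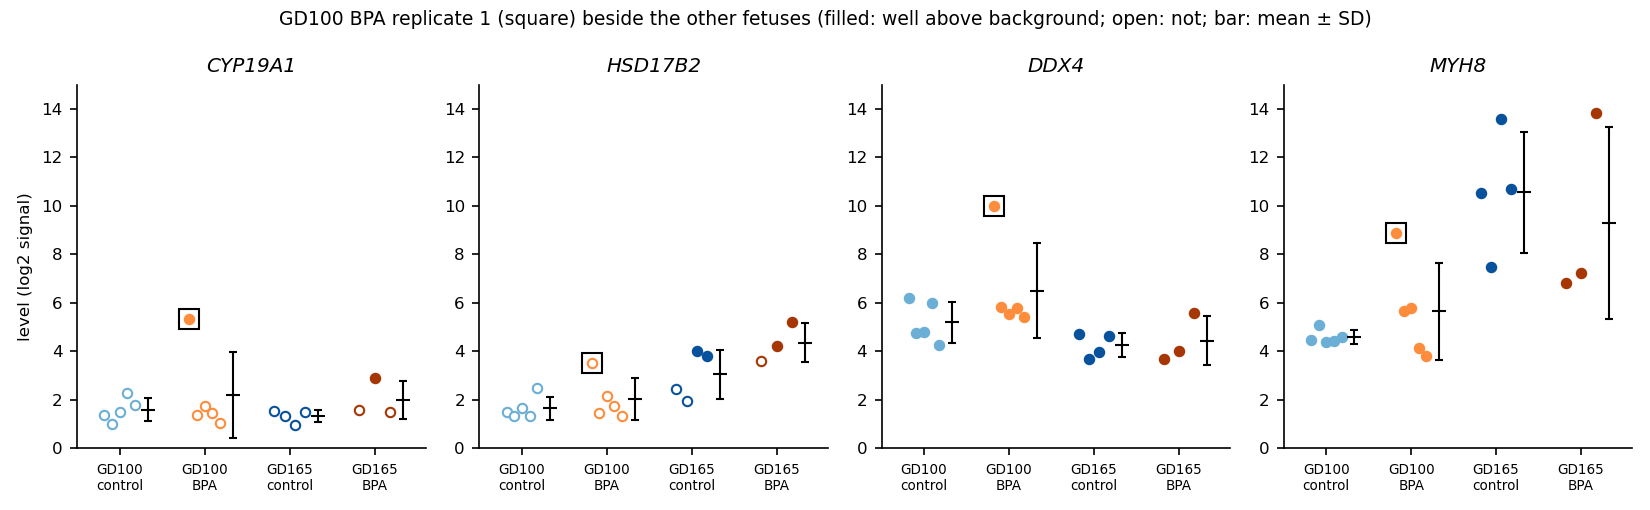
Levels (log2 processed signal) of CYP19A1, HSD17B2, the germ cell gene DDX4 and the perinatal skeletal myosin MYH8 in every fetus by group, with GD100 BPA replicate 1 in a square. Filled points were well above background, open points were not, and bars give the mean ± SD. That library is the highest of the 10 GD100 uteri in all 4 panels, with 5.32, 3.51, 9.97 and 8.87.

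Around the 10 genes, 62 other genes of estrogen handling in 5 lists were measured, and limma called 12 as higher and 2 as lower in GD165 uteri, averaged over treatment, and their median log2 fold change was 0.05. That is 14 of 62 beside the 22.4% of all probes called in this comparison. Conjugated steroid transport held the most, with 6 of 12 higher and 0 lower (median 0.65). SLCO1A2, an uptake carrier of sulfated steroids that was well above background on 10 of 17 arrays, was higher at GD165 by 2.94 log2 units averaged over treatment (adjusted p = 0.00029, limma). The difference was 4.31 in controls (adjusted p = 0.00034) and 1.56 in BPA-exposed fetuses (adjusted p = 0.139), and the interaction was not called (−2.75, adjusted p = 0.531, limma). ABCC3, an efflux pump of conjugates, rose by 1.19 averaged over treatment, SLCO1B1 by 0.96 and ABCG2, which exports estrone sulfate, by 0.79 (adjusted p = 7.7e-05, 0.0012 and 3.8e-05, limma).

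Beside 11.3% of all probes higher and 11.1% lower, 4 of 11 other 17-beta and keto-steroid reductases were higher and 0 lower. They were SRD5A2, the steroid 5-alpha-reductase of androgen target tissue (1.63), AKR1C2 (1.42) and AKR1C1 (1.40), which inactivate androgens and progesterone and whose near-identical sequences may share signal, and HSD17B11 (0.63). In precursor synthesis, 1 of 12 was higher, the cholesterol transport protein gene TSPO (0.88, adjusted p = 9.1e-06, limma). Sulfation and desulfation machinery gave 1 of 13 higher, SULT1A2, and 1 lower, PAPSS1 (−0.29, adjusted p = 0.0065, limma), which makes the sulfate donor that all sulfotransferases need. In hydroxylation, methylation and glucuronidation 1 of 14 was lower, CYP3A5 (−1.12, adjusted p = 0.0052, limma), a monooxygenase that hydroxylates steroids. The CYP3A5 difference missed the limma threshold in controls (−0.70, adjusted p = 0.209) and in BPA-exposed fetuses (−1.54, adjusted p = 0.0149). Counts in precursor synthesis, sulfation and hydroxylation were near the shares of all probes and are no result about those lists.

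**Figure D5:**
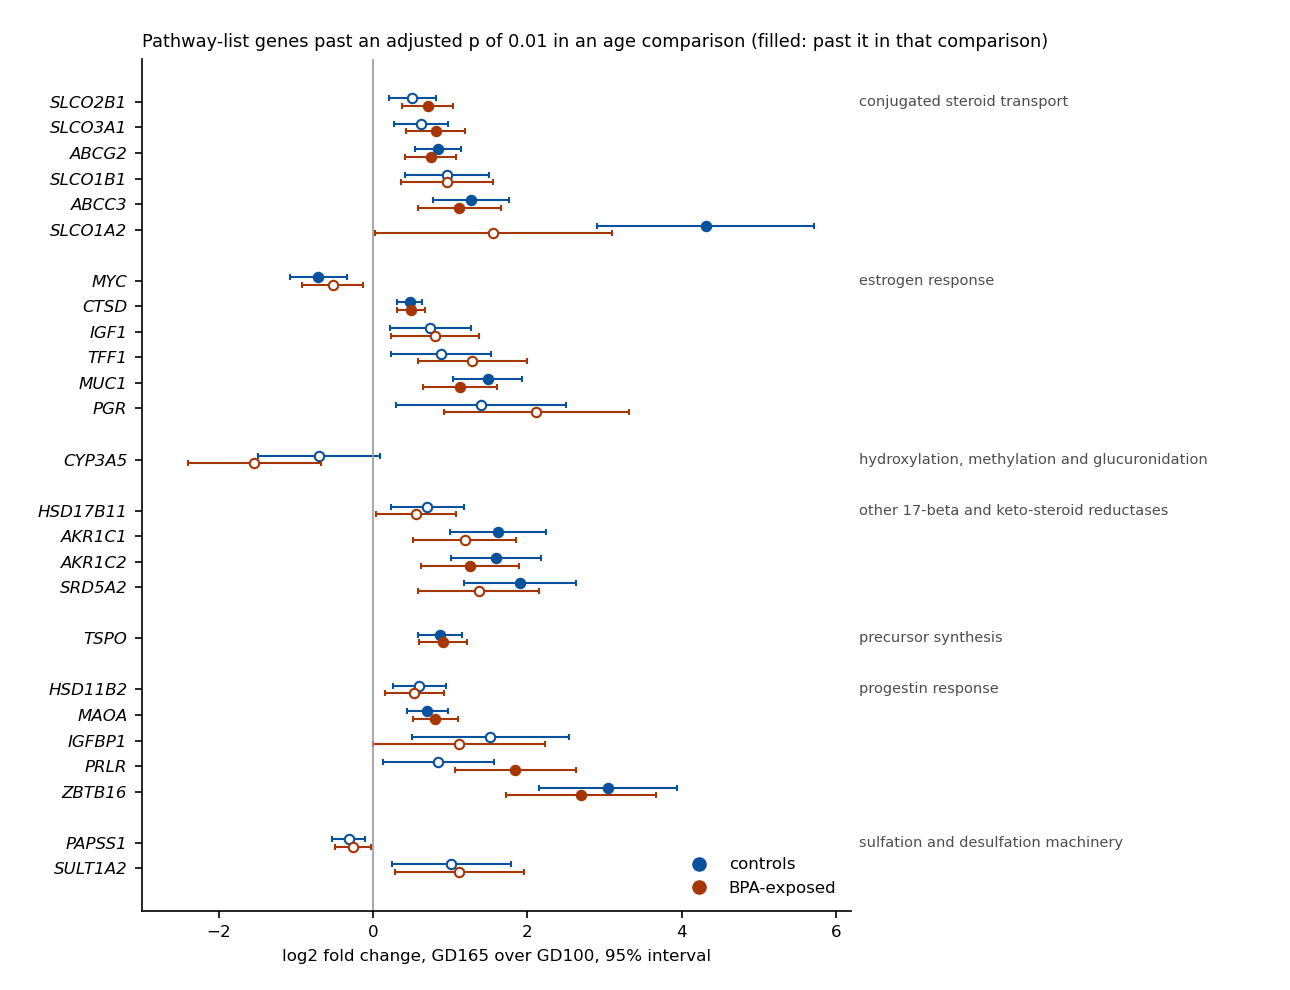
Log2 fold change between GD165 and GD100 with its 95% interval for the pathway-list genes that passed an adjusted p of 0.01 in at least 1 age comparison, in controls and in BPA-exposed fetuses, grouped by list. Filled points passed in that comparison, and genes with no filled point passed only averaged over treatment. All genes but MYC, CYP3A5 and PAPSS1 lie to the right of 0.

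Genes known to respond to ovarian steroids were read beside the enzymes. Of 21 estrogen response genes, 5 were higher and 1 lower at GD165, averaged over treatment (median 0.01), beside 11.3% of all probes higher and 11.1% lower. MUC1, a surface mucin, rose by 1.31 and TFF1, a secreted trefoil peptide, by 1.08 (adjusted p = 1.4e-05 and 0.0016, limma), IGF1 rose by 0.77, and MYC fell by 0.62 (adjusted p = 0.0040 and 0.0015). PGR, the progesterone receptor gene, was well above background on 3 arrays alone, with a fitted log2 fold change of 1.755 (adjusted p = 0.0023, limma). With its GD100 signals raised to the background level as for HSD17B2 it was 1.45-fold higher, which carries no test.

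Of 13 progestin response genes, 5 were higher and 0 lower (median 0.42), beside the same 11.3% and 11.1% of all probes. ZBTB16, a transcription factor induced by progestins and glucocorticoids, rose by 2.87 and PRLR, the prolactin receptor, by 1.34 (adjusted p = 7.1e-06 and 0.00071, limma). IGFBP1 of decidual cells rose by 1.31 and MAOA by 0.75 (adjusted p = 0.0094 and 2.2e-05). None of the 7 lists had a gene called for BPA at either age, beside 0% of all probes. At GD165, SLCO1A2 differed by −3.2 between BPA-exposed and control newborns, without overlap (95% interval −4.81 to −1.60, unadjusted p = 0.00068, adjusted p = 0.354, limma). CYP3A5 (−1.51), MUC1 (−0.56) and PRLR (0.82) also had an unadjusted p under 0.05 there (adjusted p = 0.407, 0.532 and 0.579, limma). MUC1 did not overlap either. These genes were read among list genes called in an age comparison, and whole lists were not counted at that p. Over whole lists, 3 of 12 transport and 2 of 14 hydroxylation, methylation and glucuronidation genes did not overlap at GD165. The counts were 1 of 12 in precursor synthesis, 1 of 13 in sulfation, 1 of 21 in estrogen response, 0 of 11 in other reductases and 0 of 13 in progestin response. Of all probes, 8.61% had an unadjusted p under 0.05 and 7.31% did not overlap.

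Markers of several cell types differed with age as well, in a comparison where 11.3% of all probes were higher and 11.1% lower. Of 10 columnar epithelial markers 7 were higher at GD165 and 0 lower, and the log2 of their summed signal was 16.95 to 17.65 over the GD100 uteri and 17.69 to 18.38 over the GD165 uteri. Of 6 leukocyte markers 4 were higher (summed signal 14.50 to 15.36 and 15.96 to 17.22), of 5 skeletal muscle markers 4 (7.48 to 10.78 and 10.75 to 16.13) and of 7 smooth muscle markers 3 (20.59 to 21.06 and 20.79 to 21.31), with 0 lower in each. Of 5 endothelial markers 2 were higher and 0 lower (14.76 to 15.69 and 15.67 to 16.67), of 4 erythroid markers 1 higher and 0 lower (12.00 to 15.44 and 17.48 to 19.24). Of 5 stromal markers 1 was lower and 0 higher (19.00 to 19.35 and 18.79 to 19.26), of 9 uterine and Müllerian markers 4 were lower and 1 higher (17.21 to 17.51 and 16.92 to 17.40), and of 6 gonad and oviduct markers 1 was lower and 0 higher (11.86 to 12.63 and 11.80 to 12.20). Of 7 squamous markers 0 were called (13.38 to 14.28 and 13.44 to 16.68). The part of these shifts in the age differences of SULT1E1, SULT1A1 and HSD17B2 was not tested.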

How the data were processed

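The deposited values were Agilent scanner intensity files of 17 single-color rhesus macaque arrays, which the authors extracted with Feature Extraction 9.5, with background subtraction, detrending and surrogate values for spots not above background, so low levels such as those of CYP19A1 and HSD17B2 are partly set by the software. The deposited table of all arrays held the same intensity values (711467 of 711467 equal, tolerance 0). Other normalized values of the authors were not analysed here. Log2 processed signals of the spots of 20217 probes were averaged without control and outlier spots, and each array's 75th percentile was subtracted and their mean, 12.62, added back. limma 3.58.1 in R 4.3.3 was fitted to all 17 arrays with 4 groups, two-sided, with Benjamini-Hochberg adjustment over all probes and a threshold of 0.01. Code was tested on simulated data. Array number limits precision. Genes named are the 10 members, up to 4 called genes per pathway list and direction, and 5 genes alike in pattern to SULT1E1. The members and lists were chosen with earlier results of these data known. Names came from the arrays' annotation and RefSeq tables (18038 probes named). Alternatives were other background corrections, scalings, filters, weights, slide and replicate blocks, the compared groups alone and leaving out each animal. The annotation's coordinates were used only for the chromosome given for the STS probe.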

Additional observations from a re-analysis of the deposited data

Results flagged for a closer look

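Of 30 groups of 4 or 5 animals over the 10 genes, 7 held an animal far from the rest by Dixon's ratio, the gap to the nearest animal over the range of the group. Chance alone flags about 1 in 20 such groups. SULT1E1 was low in GD100 control replicate 1 (13.77 against 15.55 to 15.98, ratio 0.805). CYP19A1 was high in GD100 BPA replicate 1 (5.32 against 1.04 to 1.73, ratio 0.838), the library that also stood apart in DDX4 and skeletal muscle genes. HSD17B2 was high in GD100 control replicate 5 (2.47 against 1.32 to 1.65, ratio 0.710), with no array of that group well above background. STS was low in that same animal (5.12 against 5.63 to 5.71, ratio 0.873). HSD17B1 was high in GD165 control replicate 1 (15.38 against 15.17 to 15.20, ratio 0.866). HSD17B12 was low in GD165 control replicate 6 (13.18 against 13.50 to 13.57, ratio 0.833). HSD17B8 was low in GD100 BPA replicate 4 (13.83 against 14.38 to 14.56, ratio 0.759).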

How the results depend on the processing

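The number of the 10 genes called between ages in controls, 1 in the reported fit, was 0 when only the compared groups were fitted, 0 with slide as a fixed block and 0 to 2 with 1 animal left out. It was 0 without any 1 of GD100 control replicates 2 to 5 or GD165 control replicates 3 or 6, and 2 without GD100 control replicate 1. In BPA-exposed fetuses the reported 2 became 1 with normexp correction, without dim probes, with the compared groups only, with error weights and with slide as a random block, and 0 with slide as a fixed block. It was 0 to 2 with 1 animal left out, 0 without GD165 BPA replicates 4 or 5, and 1 without any 1 of GD100 BPA replicates 2 to 5, GD100 control replicates 1 to 4 or GD165 BPA replicate 3. Averaged over treatment the reported 3 became 1 with slide as a fixed block, and was 2 to 3 with 1 animal left out. Of these 3, HSD17B2 lost its averaged call with normexp correction (adjusted p = 0.0759, limma) and was not tested without dim probes. HSD17B12, not called in the reported fit, passed under at least 1 other alternative (lowest adjusted p = 0.0085, limma). The 3 BPA comparisons gave 0 under every alternative, where 0 or 1 of all probes were called. Over all probes, calls in controls numbered 2328 in the reported fit, 1172 with the compared groups and 1233 with the fixed slide block. With 1 animal left out they numbered 1512 to 2370. Averaged over treatment they numbered 4531 in the reported fit, 2980 with the fixed slide block and 3696 to 4485 with 1 animal left out. In BPA-exposed fetuses all-probe calls numbered 1956 in the reported fit, 1176 with the compared groups and 512 with the fixed slide block. They numbered 2187 with normexp correction, 2133 of 17516 without dim probes, 2093 with error weights and 1846 with the random slide block. With 1 animal left out they numbered 994 to 2131. The fixed slide block fits GD165 control replicate 5, alone on its slide, exactly.

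With the replicate number as a block, the calls between ages were 0 in controls, 1 in BPA-exposed fetuses and 1 averaged over treatment. Over all probes, the calls with this block numbered 958, 1444 and 3129 in turn. Same-numbered animals did not deviate together (r between −0.17 and 0.16), so the numbers were not taken as a pairing, and the block fits GD165 control replicate 6, the only animal of its number, exactly. Counted as refits of a gene in a comparison, leaving out each animal in turn lost a call in 28, gained it in 1 and left 991 the same. Of the 28, 11 were of HSD17B2 and 2 of SULT1E1 in BPA-exposed fetuses, 6 of SULT1E1 in controls and 9 of averaged SULT1A1. Of the refits under the other alternatives, 17 lost a call, 2 gained it, 8 moved otherwise and 781 stayed the same. No called value changed sign. The causes were not tested. Fitting only the compared groups does not apply to the averaged comparison or the interaction. The r without GD100 control replicate 1 was chosen after seeing the data. CYP19A1 and HSD17B2 were measured mostly at background, and the part of this, of slides and of single animals in their values was not tested.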
